A study of Mus musculus with 4 samples.

Results

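Alternative activation genes are the transcripts that interleukin-4 (IL-4) and IL-13 raise in mouse macrophages. The 6 taken here were Il4ra, Retnla, Mgl2, Chil3, Arg1 and Ear2, chosen by name from 19505 genes with a named probe set. For 5 of the 6 a probe set carried the symbol in the platform annotation, and each of these had 1 probe set. Ear2 was matched by neither symbol nor gene number, so no level of it is given here. Of the 5, 3 were above background in all 4 libraries (Il4ra, Retnla and Mgl2), Chil3 in 1 and Arg1 in none.

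The samples were macrophages from the hearts of wild-type mice of strain C57BL/6N aged 15 to 16 weeks, after transverse aortic constriction (TAC), an operation that narrows the aorta and makes the left ventricle pump against higher pressure. All 4 groups had TAC, and no unoperated group was analysed here. Cells of 6 mixed hearts were sorted by flow cytometry into populations titled Ccrl2, CD74, CD163 and Trem2, and each gave 1 library on 1 Clariom S array. The labels conflict on the time after surgery (8 weeks in the source names, 1 week in the growth protocol), on the population titled CD74 (CD9 in its source name) and on the one titled CD163 (Lyve1 in the growth protocol). With 1 library of pooled hearts per population there was no spread between replicates and no test, and how precise a value is stays limited by the single array behind it.

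IL-4 and IL-13 act through receptors that share the chain encoded by Il4ra, paired with the common gamma chain or with the product of Il13ra1. Janus kinases bound to these chains phosphorylate STAT6, which enters the nucleus and drives the target genes. Arg1 encodes arginase, which turns arginine into ornithine and urea. Chil3 encodes the secreted chitinase-like protein Ym1, Retnla the secreted resistin-like molecule alpha, and Mgl2 a galactose-type C-type lectin on the cell surface. Ear2 encodes a secreted ribonuclease of the eosinophil-associated family. In tissues, these transcripts mark macrophages of type 2 immunity and repair, and Chil3 is also made by mouse monocytes and neutrophils.

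For 3 motifs, a search was made on both strands in the 250 bases before the start of each gene, since STAT6 is known to bind a spaced palindrome. RefSeq promoter windows of build GRCm38.p6 were matched for 5 of the 6 genes. No window was at hand for Arg1, so its promoter was not searched. The STAT6-type motif TTCNNNNGAA was present in 5.85% of all 32851 windows. Among the 5 genes searched it was in Retnla alone, with its first base 145 bases before the start. The general STAT motif TTCNNNGAA, with a shorter spacer, was present in 7.02% of windows and in Chil3, with its first base 172 bases before the start. The C/EBP-type core TTGCNNAA, known to be bound by partner factors, was present in 9.56% of windows, and in Retnla it began 134 bases before the start, next to the STAT6-type match without overlapping it. It also lay in the Ear2 window, 90 bases before the start. The windows of Mgl2 and Il4ra held none of these letters. The stretches of the 3 target genes with values above background are shown, with STAT-type matches in capitals. Retnla lies at chr16:48842359-48842608 on the plus strand, Mgl2 at chr11:70130107-70130356 on the plus strand and Chil3 at chr3:106167565-106167814 on the minus strand.
Retnla: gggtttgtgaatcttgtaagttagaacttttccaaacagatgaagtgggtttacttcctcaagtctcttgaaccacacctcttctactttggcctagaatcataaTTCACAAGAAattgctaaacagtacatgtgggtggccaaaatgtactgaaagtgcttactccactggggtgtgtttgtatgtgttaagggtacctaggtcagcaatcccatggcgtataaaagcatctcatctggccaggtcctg
Mgl2: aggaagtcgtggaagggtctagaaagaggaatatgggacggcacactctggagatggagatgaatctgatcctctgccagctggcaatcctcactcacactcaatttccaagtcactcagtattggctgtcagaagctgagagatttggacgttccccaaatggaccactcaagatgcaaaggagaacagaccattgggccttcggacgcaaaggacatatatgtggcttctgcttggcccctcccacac
Chil3: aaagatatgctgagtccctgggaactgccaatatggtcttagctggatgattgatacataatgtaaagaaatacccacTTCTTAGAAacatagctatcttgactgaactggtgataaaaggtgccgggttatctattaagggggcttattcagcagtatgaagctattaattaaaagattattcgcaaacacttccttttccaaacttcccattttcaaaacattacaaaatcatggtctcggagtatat

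Levels are the deposited log2 values, and levels of different genes are not compared, since each probe set has its own response. For each library a background ceiling was set at the 95th percentile over 1500 chemosensory receptor and keratin-associated protein genes, which heart macrophages are not known to use. It was 5.67 in Ccrl2 and 6.53 in CD74, with 6.28 in CD163 and 5.51 in Trem2, with 7454, 3621, 4984 and 8144 genes above it. In the same order these were 38.2%, 18.6%, 25.6% and 41.8% of all genes. A gene was called when it differed by at least 1 log2 unit (2-fold), with any value under its ceiling set to that ceiling. The CD74 library stood apart: of 10 pan-macrophage genes 8 were above its ceiling, against 10 in each other library, and Csf1r, whose product receives the growth factor CSF-1, had 9.40 there against 18.60 to 19.59 elsewhere. Of 11 T and NK cell genes, 10 were above the ceiling in CD74, with 0 in Ccrl2, 1 in CD163 and 7 in Trem2. Values are therefore also given without it. In sorted bulk cells, fewer cells of a type and less RNA per cell cannot be told apart.

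Il4ra, the receptor chain that both cytokines need, was well above background in every library. It had 10.29 in Ccrl2 and 9.28 in CD74, with 10.37 in CD163 and 10.51 in Trem2. The CD74 library was the low one, and the other 3 spanned 0.22 log2 units, which 4.21% of the 2684 genes above the ceiling in all 4 libraries matched or undercut. Over all 4 libraries the range was 1.23, which 28.1% of these genes matched or undercut. This evenness depended on the scale. After quantile normalization Il4ra had 9.52 in Ccrl2 and 10.59 in CD74, with 10.84 in CD163 and 9.65 in Trem2, so that CD74 was no longer lowest and CD163 lay highest. The rank within each library is free of either scaling: 95.4% of genes lay below Il4ra in Ccrl2 and 97.2% in CD74, with 97.4% in CD163 and 95.7% in Trem2.

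Retnla, the resistin-like target gene, separated the libraries in one order as deposited, after median centring and after quantile normalization. It had 7.36 in Ccrl2 and 8.36 in CD74, with 9.30 in CD163 and 6.31 in Trem2, so the level was highest in CD163 and lowest in Trem2. The CD163 level lay 3.02 above its ceiling, the Ccrl2 level 1.69, the CD74 level 1.83 and the Trem2 level 0.80. Of the 1500 background genes, 4 were brighter than Retnla in Trem2 and 0 in each other library. CD163 was 7.94-fold above Trem2 and Ccrl2 3.84-fold below CD163. The gap between the neighbours CD74 and CD163 was -0.94, short of the 2-fold line. Ccrl2 lay 1.05 above Trem2 and 1.00 below CD74, both at the line, and the first slipped to 0.89 after quantile normalization and the second to -0.84 after median centring. In rank, 81.5% of genes lay below Retnla in Ccrl2 and 95.4% in CD74, with 95.9% in CD163 and 69.9% in Trem2. Its range of 2.99 over the libraries did not rest on CD74, being the same without it, and 77.7% of genes above the ceiling everywhere had a range as small or smaller, or 92.1% where CD74 was left out.

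Mgl2, the galactose-type lectin gene, was bright in 3 libraries and at background in the other. It had 10.73 in Ccrl2 and 6.58 in CD74, with 10.91 in CD163 and 9.37 in Trem2. The CD74 value lay 0.05 above its ceiling, and 4.53% of background genes were brighter there. CD74 was 20.1-fold below CD163, 6.92-fold below Trem2, and Ccrl2 was 17.8-fold above CD74. With the stricter ceiling, the 99th percentile of the background genes, Mgl2 was below background in CD74, and the CD74 minus CD163 difference of -4.33 became a bound of -3.67. Without CD74 the range was 1.54, with Ccrl2 2.57-fold and CD163 2.91-fold above Trem2. Of genes above the ceiling everywhere, 92.0% had a range as small or smaller with CD74 and 60.3% without it. The median range of these genes without CD74 was 1.27. Ccrl2 minus CD163 was -0.18, with -0.01 after median centring and -1.41 after quantile normalization. The sign was thus kept, but the size of the gap between these neighbours, from level to past 2-fold, is not settled. The pan-macrophage genes moved with Mgl2 between CD74 and the rest: all 10 were called lower in CD74 than in CD163, where 19.3% of all genes tested were. Their median difference was -4.13, beside -4.33 for Mgl2 and -0.24 over all genes. The part of the pan-macrophage genes in the Mgl2 difference was not tested.

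**Figure D1:**
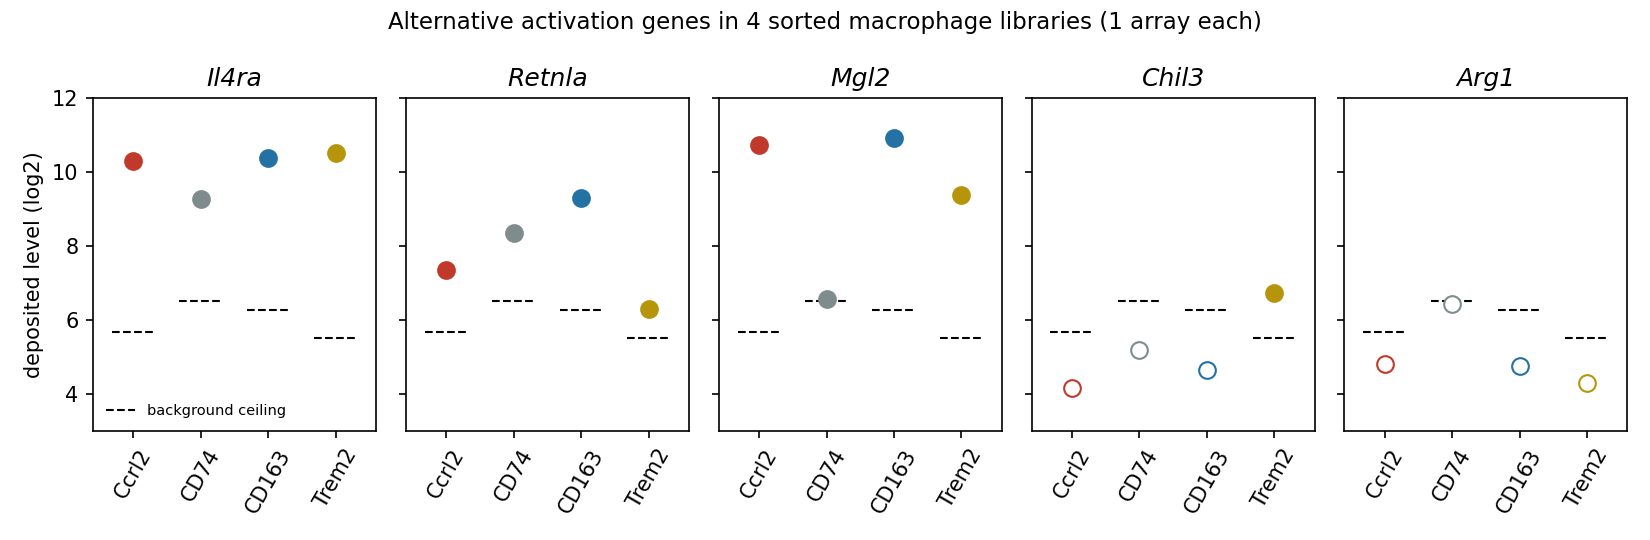
Deposited log2 level (vertical axis) of Il4ra, Retnla, Mgl2, Chil3 and Arg1 in the 4 libraries (horizontal axis), 1 point per array, filled where it is above the background ceiling and open where it is not; dashed lines are the ceilings. Mgl2 in CD74 (6.58) sits on its ceiling (6.53), Chil3 clears it in Trem2 (6.72 against 5.51) and Arg1 stays under it in each library.

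Chil3, the chitinase-like gene, was above background in the Trem2 library alone. It had 4.18 in Ccrl2 and 5.20 in CD74, with 4.64 in CD163 and 6.72 in Trem2, where 2 of the 1500 background genes were brighter. Since the other libraries gave bounds, Ccrl2 was at least 2.07-fold, CD74 at least 1.14-fold and CD163 at least 1.36-fold below Trem2, and the first of these alone passed the 2-fold line. It no longer passed with the 99th percentile ceiling (-0.33, Ccrl2 minus Trem2) or after quantile normalization (-0.75). Neutrophil genes were high in the same library. Of 10 measured, 8 were above the ceiling in Trem2, against 3 in Ccrl2, 4 in CD74 and 1 in CD163, and the log2 of their summed linear level was 14.95 in Trem2, with 9.90 in Ccrl2, 9.83 in CD74 and 8.90 in CD163. S100a8, a calprotectin chain, had 12.29 in Trem2 and 4.66 to 6.81 in the other libraries. Classical monocyte genes were above the ceiling in 6 of 7 cases in Trem2, against 4 in Ccrl2, 4 in CD74 and 1 in CD163. Such counts were not particular to these cell types. Nonclassical monocyte genes gave 7 of 8 in Trem2, against 4 in Ccrl2, 3 in CD74 and 2 in CD163. B cell genes gave 8 of 8 in Trem2, against 5 in Ccrl2, 6 in CD74 and 2 in CD163. Over all genes, 41.8% were above the ceiling in Trem2, against 38.2% in Ccrl2, 18.6% in CD74 and 25.6% in CD163. The part of neutrophil or monocyte transcripts in the Chil3 value was not tested.

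Arg1, the arginase gene, was not above background in any library. It had 4.82 in Ccrl2 and 6.43 in CD74, with 4.77 in CD163 and 4.29 in Trem2. The CD74 value was the highest but lay 0.10 under the ceiling of that library, and 85 of the 1500 background genes were brighter than Arg1 there. In Ccrl2, CD163 and Trem2, 30.3%, 53.7% and 58.5% of background genes were brighter. No fold is given for Arg1, since no library measured it over background, and this held at both ceilings and under all 3 scalings.

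Set side by side, the genes did not share an order of all 4 libraries. Without CD74, Retnla and Mgl2 both ran from CD163 over Ccrl2 to Trem2, as deposited, median centred and quantile normalized. For Mgl2 the deposited step from CD163 to Ccrl2 was small (-0.18, Ccrl2 minus CD163). Il4ra was highest in Trem2 as deposited, but with quantile normalization Il4ra, Retnla and Mgl2 were each highest in CD163. Chil3 was above background in Trem2 alone. Ccrl2 against CD74 called 2 of the 5 higher (Mgl2 and Il4ra) and 1 lower (Retnla), where 32% of 7902 genes tested were called higher and 7.8% lower. Ccrl2 against CD163 called 0 higher and 1 lower (Retnla), beside 28.1% and 5.03% of 7891 genes. Ccrl2 against Trem2 called 2 higher (Retnla and Mgl2) and 1 lower (Chil3), beside 5.43% and 7.92% of 8773 genes. These 3 comparisons share the Ccrl2 library. A gene was counted as tested where at least 1 of its values lay above the ceiling, which held for 3 of the 5 genes in the first and second comparison and for 4 in the third.

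CD74 against CD163 called 0 higher and 2 lower (Mgl2 and Il4ra), beside 9.98% and 19.3% of 5842 genes. CD74 against Trem2 called 1 higher (Retnla, 4.14-fold) and 2 lower (Mgl2 and Il4ra), beside 7.62% and 32.6% of 8522 genes. CD163 against Trem2 called 2 higher (Retnla and Mgl2) and 0 lower, beside 6.07% and 27.6% of 8532 genes. In that last comparison the median difference of the 9346 genes that passed a ceiling in 1 library or more was -0.59, and Retnla and Mgl2 differed by 2.99 and 1.54 in the opposite direction. All 3 Il4ra calls involved CD74, with sizes of 2.01-fold, 2.13-fold and 2.35-fold. After quantile normalization the Il4ra difference of Ccrl2 minus CD74 changed sign, to -1.07, as did that of CD74 minus Trem2, to 0.94.

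**Figure D2:**
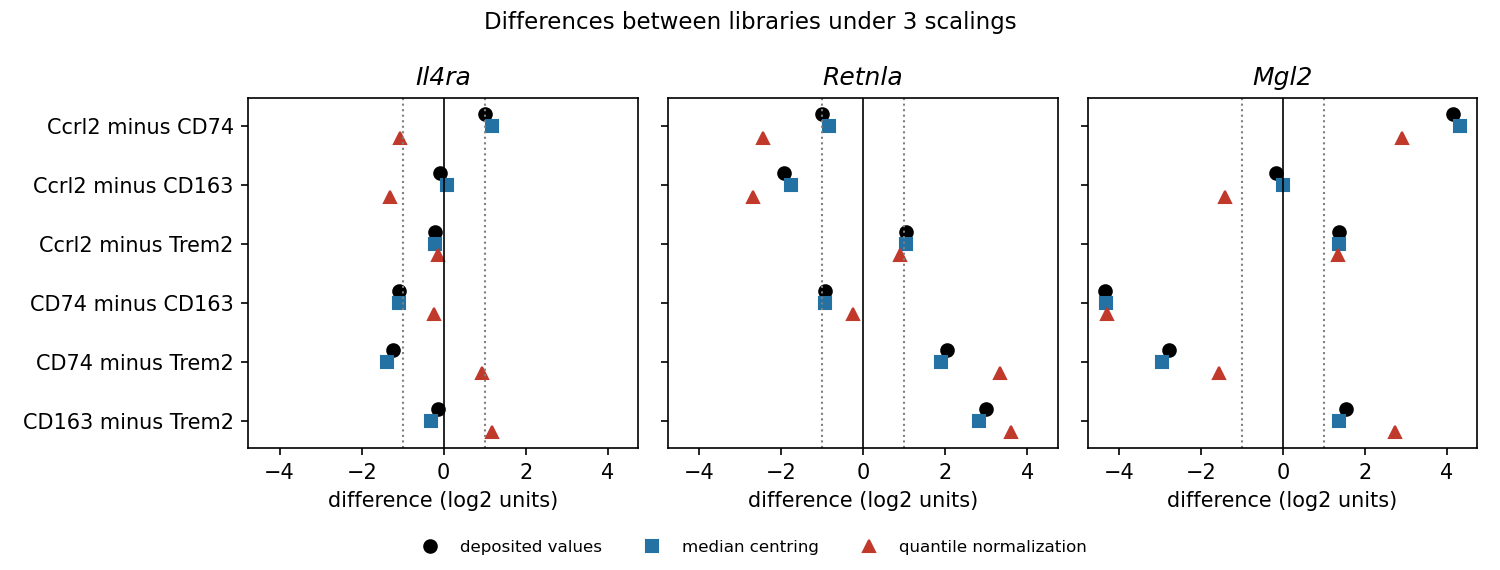
Difference between 2 libraries in log2 units (horizontal axis) for the 6 pairs (vertical axis) in Il4ra, Retnla and Mgl2, with circles for deposited values, squares after median centring and triangles after quantile normalization; dotted lines mark 1 log2 unit either way. Retnla and Mgl2 keep CD163 above Trem2 under each scaling (2.99 and 1.54 as deposited), while the Il4ra triangles cross 0 in 3 pairs.

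The cytokines at the head of the pathway were not above background. Of Il4, Il13 and the alarmin genes Il33, Il25 and Tslp, which elicit type 2 cytokines, 0 of 5 passed the ceiling in any library. Over all genes, 38.2% passed it in Ccrl2 and 18.6% in CD74, with 25.6% in CD163 and 41.8% in Trem2. Beside these shares, a count over 5 genes is not read as a result about the pathway. Il13ra1, which pairs with Il4ra to bind either cytokine, had 9.82 in Ccrl2 and 5.22 in CD74, with 10.12 in CD163 and 9.82 in Trem2. It was thus below background in CD74 and spanned 0.30 over the other 3 libraries. After quantile normalization it had 9.11 in Ccrl2, 10.60 in CD163 and 9.04 in Trem2, so that its evenness over those 3, like that of Il4ra, depended on the scaling. Il13ra2, a decoy receptor, was below background throughout.

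Of 11 signalling genes downstream of the receptor, 10 were measured. Ccrl2 against CD163 called 7 of the 8 genes tested higher and 0 lower, beside 28.1% and 5.03% of all genes tested. The median difference was 1.69, beside 0.51 over all genes above background in at least 1 library. CD163 against Trem2 called 0 of 8 higher and 7 lower, beside 6.07% and 27.6% of all genes tested. The median there was -1.75 beside -0.59. Both counts fell with quantile normalization, the first to 3 higher and 0 lower and the second to 0 higher and 2 lower. Stat6, the transcription factor of the pathway, had 9.66 in Ccrl2 and 7.21 in CD74, with 8.45 in CD163 and 10.28 in Trem2. Its order thus differed from that of Retnla, with Trem2 highest in Stat6 and lowest in Retnla, and it kept Trem2 highest and CD74 lowest after quantile normalization (9.44 and 7.99). Irs2, an adaptor that the IL-4 receptor recruits, had 9.35 in Ccrl2 and 9.94 in CD74, with 6.75 in CD163 and 10.63 in Trem2, and was the gene of this list with the widest range.

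Of 10 transcription and chromatin factors of alternative activation, 9 were above background in at least 1 library. Of these 9, 6 were called higher and 1 lower in Ccrl2 against CD74, where 32% and 7.8% of all genes tested were, with a median difference of 1.85 beside 0.71 over all genes. After quantile normalization 2 were called higher and 1 lower, and the median was 0.19 beside 0.26. Against CD163 the counts were 3 higher and 0 lower, a share near the 28.1% of all genes called higher, with a median of 0.74 beside 0.51. Against Trem2 they were 2 higher and 2 lower, beside 5.43% and 7.92% of all genes, with a median of 0.17 beside -0.07. Myc, a growth regulator, had 10.34 in Ccrl2 and 8.49 in CD74, with 7.18 in CD163 and 12.43 in Trem2. Egr2, an early response factor, had 10.82 in Ccrl2 and 6.52 in CD74, with 9.52 in CD163 and 9.74 in Trem2. Kdm6b, a histone H3 demethylase gene, had 12.93 in Ccrl2 and 9.01 in CD74, with 10.52 in CD163 and 12.46 in Trem2. Cebpb, a C/EBP factor gene, had 8.71 in Ccrl2 and 6.63 in CD74, with 8.51 in CD163 and 9.23 in Trem2. None of these genes had its highest deposited value in CD163, where Retnla was highest. That contrast depended on the scaling for Cebpb, which was highest in CD163 after quantile normalization, while the other 3 were not.

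Other IL-4 target genes were measured in 25 of 26 cases, and 17 were above background in at least 1 library. Of these 17, 10 were called higher in Ccrl2 against CD74 and 0 lower, beside 32% and 7.8% of all genes tested. The median difference was 2.76 beside 0.71 over all genes. Against CD163 the counts were 7 and 0 of 17, beside 28.1% and 5.03% of all genes (median 1.34 beside 0.51). Against Trem2 they were 6 and 1 of 17, beside 5.43% and 7.92% (median 0.51 beside -0.07). Mrc1, the mannose receptor gene, was at the top of the scale (19.93) in Ccrl2, CD163 and Trem2 and had 9.46 in CD74, so only a difference from CD74 can be read. Fcgr2b, the inhibitory IgG receptor gene, had 18.21 in Ccrl2 and 11.68 in CD74, with 18.24 in CD163 and 17.57 in Trem2. Plxdc2, a membrane protein gene, had 13.42 in Ccrl2 and 5.65 (below background) in CD74, with 7.02 in CD163 and 11.66 in Trem2. Cd36, a lipid scavenger receptor gene, had 12.32 in Ccrl2 and 5.69 (below background) in CD74, with 10.15 in CD163 and 12.56 in Trem2. The last 2 were lower in CD163 than in Ccrl2, opposite to Retnla. Ccl24, a chemokine gene for eosinophils that was named after its values were seen, was highest in CD163 as Retnla was. It had 7.57 in Ccrl2 and 6.75 in CD74, with 8.53 in CD163 and 7.06 in Trem2. Its lowest library was CD74 and not Trem2, and its lead over Ccrl2 was short of the 2-fold line.

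**Figure D3:**
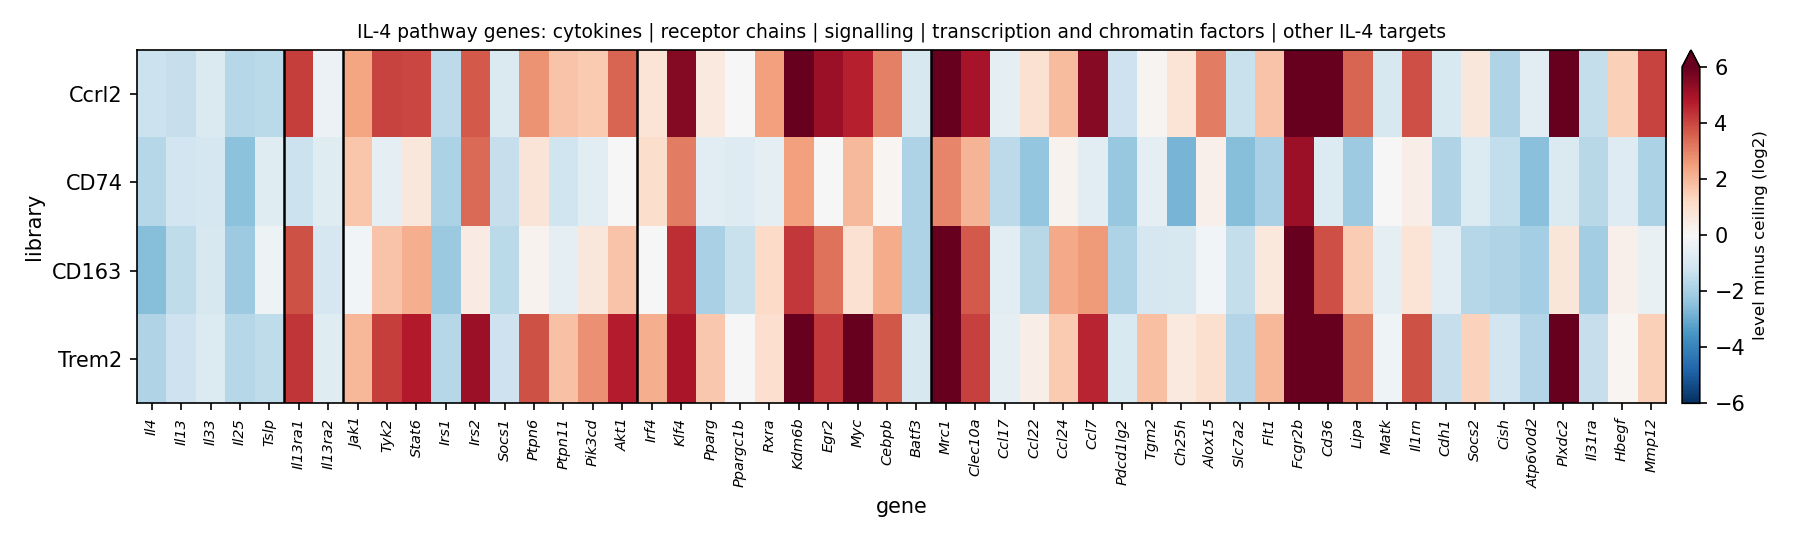
Level minus the library's background ceiling in log2 units (colour, red above and blue below the ceiling, with values over 6 at the end of the scale) for IL-4 pathway genes (columns, in 5 groups split by black lines) in the 4 libraries (rows); columns are read down, across libraries. The 5 cytokine genes are below the ceiling in every library, and Il13ra1, the first receptor chain shown, is above it in each but CD74.

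Among paralogs, Retnlg, a resistin-like gene of neutrophils, had 6.83 in Ccrl2 and 7.15 in CD74, with 5.17 (below background) in CD163 and 16.81 in Trem2, so Retnla and Retnlg had opposite extremes. Retn and Retnlb were below background in all 4 libraries. Clec10a, the lectin gene next of kin to Mgl2, had 10.62 in Ccrl2 and 8.56 in CD74, with 9.97 in CD163 and 9.59 in Trem2, lowest in CD74 as deposited but at 9.75 in CD74 and 8.82 in Trem2 after quantile normalization. Of the chitinase family, Chil1 was above background in Trem2 alone (5.94), as was Chil3, while Chil4 was below it throughout. Of 5 other eosinophil-associated ribonuclease genes, Ear10 alone passed a ceiling, in Trem2 (6.02). Genes of that family are close copies, so their transcripts may bind each other's probes.

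Among genes that handle arginine, Arg2, the mitochondrial arginase gene, was above background in Trem2 alone, at 7.36, with 5.55 in Ccrl2, 5.30 in CD74 and 4.83 in CD163. Nos2, the inducible nitric oxide synthase that competes for arginine, was below background in all 4 libraries (4.71 to 5.12). Oat, which uses ornithine, had 8.69 in Ccrl2 and 5.10 (below background) in CD74, with 7.87 in CD163 and 8.25 in Trem2. Odc1, the first enzyme of polyamine synthesis, had 7.38 in Ccrl2 and 7.28 in CD74, with 6.50 in CD163 and 7.80 in Trem2. Of the 7 measured, 4 could be tested in Ccrl2 against CD74, and 1 was called higher (Oat) and 1 lower, where 32% and 7.8% of all genes were, so that the share called higher was near that of all genes. The lower gene was Asl, argininosuccinate lyase, with 5.81 in Ccrl2 and 7.27 in CD74.

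The genes whose 4 values lay nearest to each described gene, after each gene was centred on its own mean, were named among 8999 others by the root mean square difference over the 4 libraries. For Mgl2 they were Rgs10 (0.07), Wwp1 (0.10) and Irf1 (0.19), in log2 units. Rgs10, a regulator of G protein signalling, had 11.75 in Ccrl2 and 7.41 in CD74, with 11.80 in CD163 and 10.28 in Trem2. For Il4ra they were Eya3 (0.03), D6Ertd527e (0.04) and Fbxw8 (0.04), and for Chil3 Pls1 (0.05), Hdhd2 (0.10) and Stfa2l1 (0.13), the last a stefin-like gene. Chil3 and these 3 genes were above background in Trem2 alone, so their likeness rests on 3 values under the ceilings. D6Ertd527e was also above background in Trem2 alone, and Eya3, Fbxw8 and Wwp1 were below it in CD74. Their likeness to Il4ra or Mgl2 thus rests in part on values under the ceilings. For Retnla they were Vmn2r11 (0.19), Pmch (0.21) and Olfr820 (0.22). Vmn2r11 and Olfr820 are chemosensory receptor genes counted here as background. They had 5.40 and 5.22 in Ccrl2 and 6.89 and 6.27 in CD74, with 7.37 and 7.02 in CD163, and 4.50 and 4.63 in Trem2. An order of libraries like that of Retnla thus also occurred in background genes. Both passed the ceiling in CD163, and Vmn2r11 also did in CD74.

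Cells known to carry these transcripts or to release IL-4 were looked for by their markers. Of 5 eosinophil genes, 0 were above background in Ccrl2 and CD163 and 1 in CD74 and in Trem2 (Ccr3, at 7.01 and 6.19), while Epx, Prg2 and Siglecf were below it in each library. Of 3 measured genes of group 2 innate lymphoid and Th2 cells, 0 were above background in any library. Mast cell and basophil genes were above it in 2 of 7 cases in Ccrl2 and 2 in CD74, with 1 in CD163 and 4 in Trem2, among them Cpa3, a mast cell protease, with 6.36 in Ccrl2 and 7.64 in CD74, with 6.24 (below background) in CD163 and 9.54 in Trem2. Dendritic cell genes, of interest since such cells can carry Mgl2, were above it in 3 of 9 cases in Ccrl2 and 2 in CD74, with 1 in CD163 and 4 in Trem2. Over all genes, 38.2% were above the ceiling in Ccrl2 and 18.6% in CD74, with 25.6% in CD163 and 41.8% in Trem2. Beside these shares, such small counts are not read as a result about mast, basophil or dendritic cells. The part of dendritic cells in the Mgl2 values was not tested. Ccr7, a chemokine receptor of migrating dendritic cells that T cells also carry, had 11.38 in Ccrl2 and 14.97 in CD74, with 9.94 in CD163 and 11.68 in Trem2, above background in each. Cd209a, a lectin of dendritic cells, had 6.10 in Ccrl2 and 6.87 in CD74, with 4.62 (below background) in CD163 and 6.53 in Trem2. Dpp4 was above background in Ccrl2 (5.87) and Trem2 (5.70), and Itgax in Trem2 alone (5.68), while Flt3, Zbtb46, Xcr1 and Clec9a were below it in each library.

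**Figure D4:**
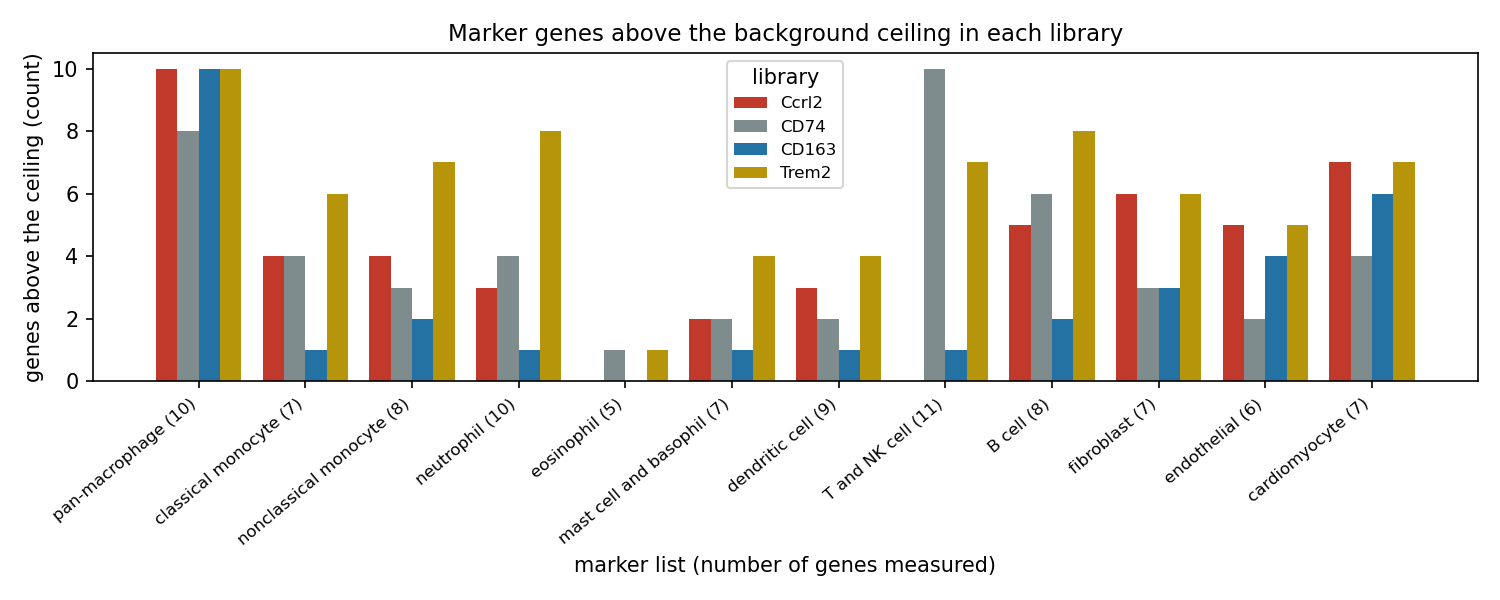
Number of marker genes above the background ceiling (vertical axis) in each library (bars) for 12 cell type lists (horizontal axis, with the number measured). Trem2 has 8 of 10 neutrophil genes above the ceiling and CD74 has 10 of 11 T and NK cell genes, while eosinophil genes number at most 1 of 5 in any library.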

How the data were processed

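Macrophage RNA was amplified with a whole-transcript kit for small inputs and hybridised to Clariom S mouse arrays, per the labels' protocols. The authors summarised probe sets by robust multichip average, per the labels' protocols, which mention GeneSpring; Affymetrix Expression Console is named in the submitters' processing notes. The deposited values run from 2.97 to 19.93 on a log2 scale, a unit read from the values. Not given in the sources used here were the settings and the probe build. Such values are compressed at both ends, and background differed between columns.

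Of 28846 probe sets, 6640 were controls and 19572 had 1 gene symbol, 0 had several. The probe set with the highest mean was used for 55 genes with more than 1, leaving 19505. A call needed 1 log2 unit after values under a ceiling were set to it, with the higher library above its own ceiling. List medians used deposited differences of list genes that passed the ceiling in 1 library or more. No test, p-value or SD was possible. Genes most like a gene were the 3 with the smallest root mean square difference, and each list gave the up to 4 genes with the largest range, besides paralogs; the 5 cytokine genes, Ccl24, Il13ra2, Nos2, Flt3, Zbtb46, Xcr1, Clec9a, Epx, Prg2 and Siglecf were named after their values were seen. The genes and 24 lists were chosen with earlier results of these data known. The call was tested on simulated data. The simulated columns shared each gene's mean, unlike these libraries, so that test checks the working of the rule and not the calls made here. Alternatives were 2 scalings, 2 ceilings, probe set means and 2 thresholds. Python 3.11.15, pandas 2.3.3 and NumPy 2.4.6 were used.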

Additional observations from a re-analysis of the deposited data

How the results depend on the processing

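No paired analysis was possible because each population was 1 library. Taking the mean over probe sets changed none of the calls in 30 differences, since each gene had 1 probe set, and none of 12 counts of called genes. The 1.5-fold threshold added 1 call, Retnla, giving 3 lower for CD74 against CD163. With quantile normalization Ccrl2 against CD74 gave 1 higher and 2 lower, Ccrl2 against CD163 3 lower, Ccrl2 against Trem2 1 higher and 0 lower, CD74 against CD163 1 lower, CD74 against Trem2 1 lower and CD163 against Trem2 3 higher. The same setting reversed Il4ra in 3 pairs, to -1.07 for Ccrl2 minus CD74, 0.94 for CD74 minus Trem2 and 1.18 for CD163 minus Trem2. The cause was not tested. Median centring gave 0 lower for Ccrl2 against CD74. Without a ceiling, values of Arg1 and Chil3 under background counted, giving 3 lower for Ccrl2 against CD74, 1 higher for CD74 against CD163, 2 higher for CD74 against Trem2 and 1 lower for CD163 against Trem2. The 99th percentile ceiling gave 0 lower for Ccrl2 against Trem2. The 4-fold threshold, by its construction, left 1 higher and 0 lower for Ccrl2 against CD74, 0 lower for Ccrl2 against CD163, 0 higher and 0 lower for Ccrl2 against Trem2, 1 lower for CD74 against CD163, 1 lower for CD74 against Trem2 and 1 higher for CD163 against Trem2. Leaving out the CD74 library, an alternative chosen after seeing the data, took the range of Il4ra to 0.22, under the 2-fold line, and left Retnla at 2.99 and Mgl2 at 1.54; ranges of Arg1 and Chil3 rest on values under background. Of 120 counts over the pathway and family lists, 30 moved by over 1.5 times with quantile normalization, 3 with median centring, 28 without a ceiling, 7 with the stricter one, 14 at 1.5-fold and 26 at 4-fold. Signal over background limited Arg1 in every library, Chil3 in 3 and Mgl2 in CD74.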
